A study of Homo sapiens with 6 samples.

Results

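The genes described here encode the nuclear-encoded subunits of the oxidative phosphorylation complexes. They were taken from the count tables by symbol, as every gene whose name begins with NDUF and a subunit letter (A, B, C, S or V) and a digit, with UQCR, with COX and a digit from 4 to 8 or with ATP5, together with SDHA, SDHB, SDHC and SDHD. This rule found 89 of the 19923 genes in the tables. Expression was measured by RNA-seq in Kelly cells, an established human neuroblastoma line with MYCN amplification that the labels give as wild type. One group of 3 libraries came from cells given a control siRNA (siControl) and the other 3 from cells given an siRNA against METTL3 (siMETTL3). All cells were transfected with lipofectamine RNAiMAX and collected after 72 h, and poly(A) RNA was selected. The line is 1 cell line, the labels give neither the number of siRNAs used nor whether replicates were separate cultures, and the p-values therefore measure only the spread between these samples.

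Oxidative phosphorylation takes place in the inner mitochondrial membrane. Complex I accepts electrons from NADH and complex II from succinate. Complex III passes them from ubiquinol to cytochrome c, and complex IV passes them on to oxygen. Complexes I, III and IV pump protons, and complex V, the ATP synthase, uses the resulting gradient to make ATP. All complexes except complex II combine subunits encoded in the nucleus with subunits encoded in mitochondrial DNA. METTL3 is the methyltransferase that places N6-methyladenosine on mRNA.

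The targeted gene checked the labels. METTL3 read 53.5, 52.8 and 56.2 CPM (counts relative to the scaled library size) in siControl and 32.99, 31.8 and 34.3 CPM in siMETTL3. The groups did not overlap, and the siMETTL3 level was 61.02% of the siControl level (log2 fold change -0.71, SE 0.070, FDR 4.68e-06). The span of METTL3 overlaps TOX4, so reads shared with TOX4 are part of this level. Total counts were lowest in siControl replicate 3, at 15430000, and lay between 20060778 and 21565013 in the other 5 libraries. All 10 neuroblastoma markers examined were present at 1 CPM or more on average, and they did not move together. MYCN, the highest, read 2880 to 3147 CPM in siControl and 4443 to 4743 CPM in siMETTL3, while ISL1 read 99.86 to 110.6 CPM and 41.55 to 48.21 CPM. Of the markers of other cell types, 0 of 5 for blood, 0 of 3 for endothelium, 1 of 4 for epithelium (EPCAM) and 3 of 6 for fibroblasts (PDGFRB, COL1A1 and COL3A1) reached that level. Counts covered whole gene spans, introns included, and reads in overlapping spans counted for every gene there. Of the 89 subunit genes, 40 (44.9%) overlapped another gene of the table, against 6603 genes (33.1%) of the whole table. All 13 mitochondrially encoded genes in the tables had 0 counts, so the subunits encoded in mitochondrial DNA gave no measurement here. In these bulk samples, fewer cells expressing a gene and less RNA per cell cannot be told apart.

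Among the subunit genes, decreases outnumbered increases in siMETTL3, except with an offset for transcript length and GC content, where increases outnumbered decreases. Of the 86 subunit genes with enough counts to test, 24 were lower and 7 higher in siMETTL3 at an FDR under 0.05. Lower genes made up 27.9% of the subunit genes, against 19.2% of all 15311 genes tested, and higher genes made up 8.14%, against 18.6%. The share called in either direction, 36.0%, was near the background of 37.8%. The median log2 fold change of the 86 genes was -0.12, against -0.0021 over all genes tested, but it was 0.023 with the offset. In the fit with the offset 18 subunit genes were higher and 12 lower. Fitted values were below 0 for 61 genes and above 0 for 25. Groups did not overlap for 42 of the 86 genes, where 49.9% of all genes tested did not overlap. Of the 42 genes, 32 were lower (25.1% of all genes tested did this) and 10 higher (24.8%). The fold changes ran from -0.92 for ATP5F1E to 1.22 for COX7A1, the latter not past the threshold.

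**Figure D1:**
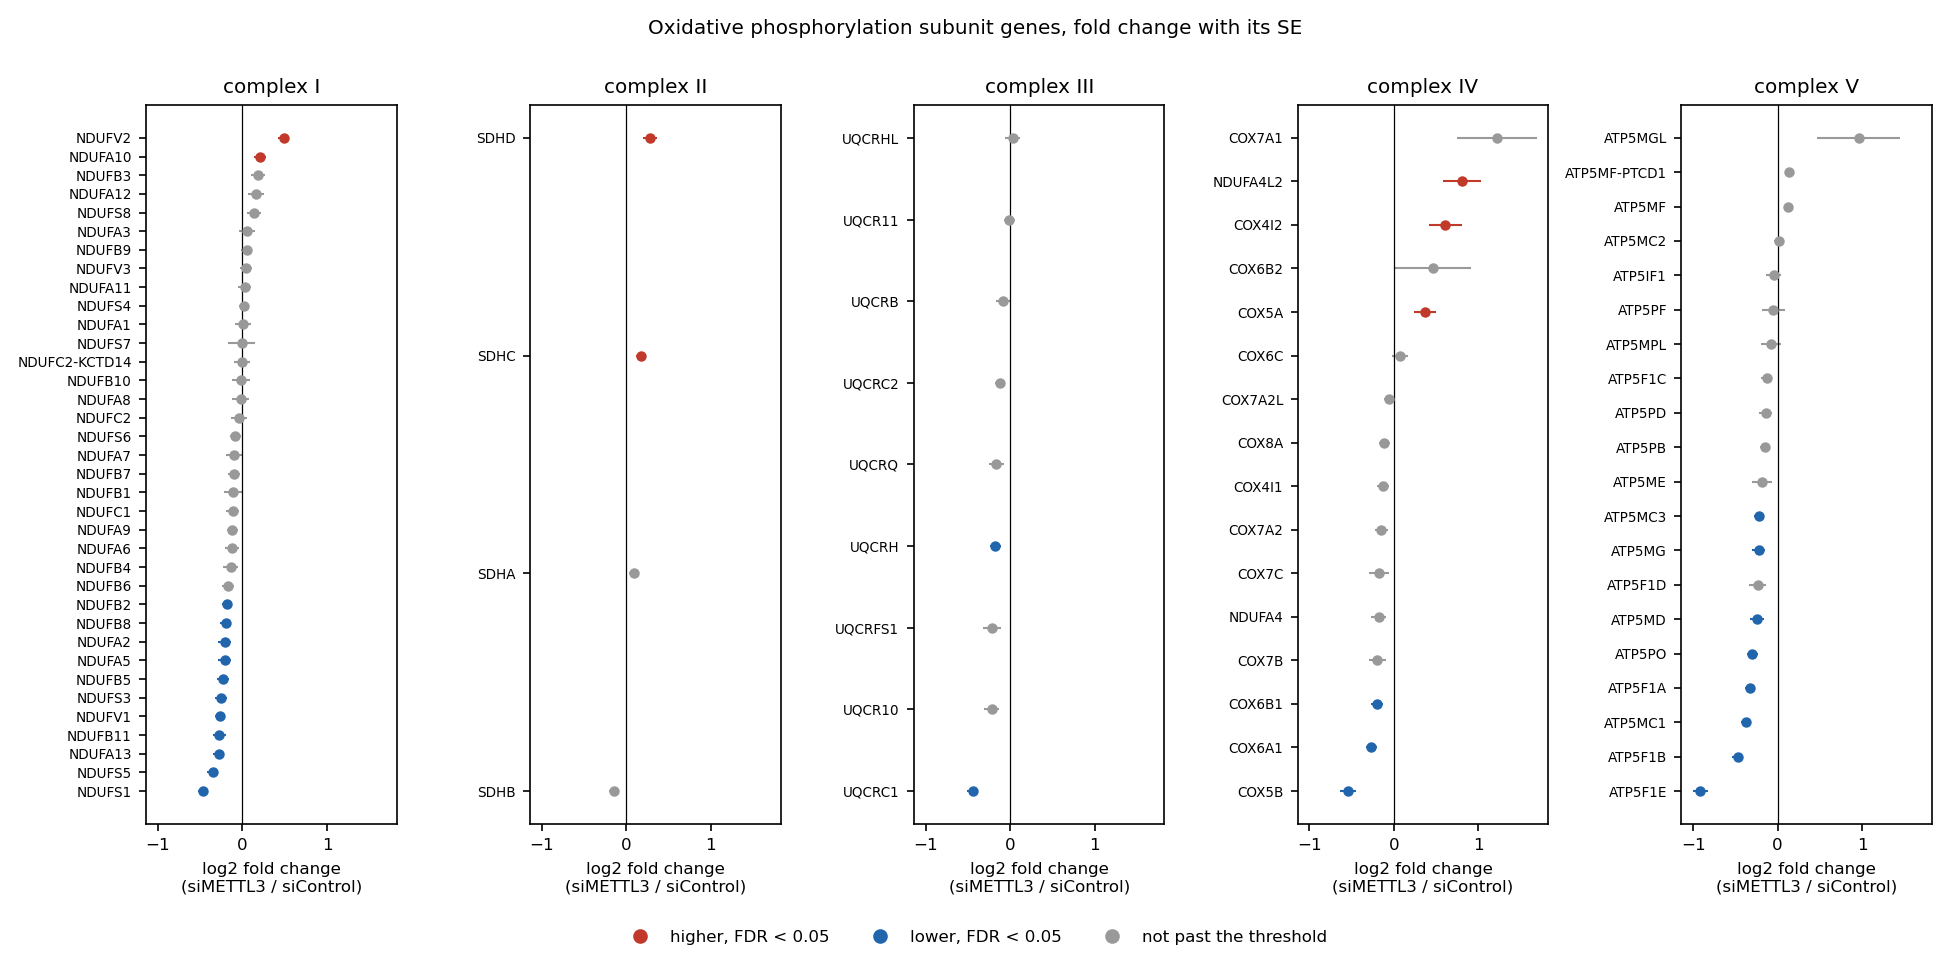
Log2 fold change (siMETTL3 over siControl, x axis) of tested subunit genes by complex, with 1 SE either side. Blue points are lower and red points higher at an FDR under 0.05. Most fold changes lie within 0.5 of 0, with ATP5F1E at -0.92 and COX5B at -0.54 among the lowest and NDUFV2 at 0.49 the highest called gene of complex I.

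The number of calls moved with single libraries. Without siControl replicate 1, 37 genes were lower and 9 higher. Without siControl replicate 2 the counts were 13 and 4, and without siControl replicate 3 they were 20 and 9. Leaving out siMETTL3 replicate 1, 2 or 3 gave 14, 14 and 15 lower genes and 2, 4 and 3 higher genes. The siControl libraries differed from each other in the same genes: the median log2 difference of the subunit genes from the siControl mean was -0.093 in siControl replicate 1, 0.012 in replicate 2 and 0.074 in replicate 3. In siMETTL3 the medians were -0.14, -0.12 and -0.094, so that siControl replicate 1 lay about level with siMETTL3 replicate 3. Over all genes the same medians stayed between -0.0028 and 0.0055. Of the 31 called genes, 13 kept their call in all 6 fits with a library left out. NDUFA2, NDUFA5, NDUFB2, NDUFB5, NDUFB8, ATP5MG and ATP5MD lost theirs in 3 to 5 of those fits, and the other calls lost are given with each gene. Over all alternatives NDUFA5 lost its call in 14 of 20, ATP5MD in 11 of 19 and NDUFA2 in 10 of 19. Of the 55 genes not past the threshold, 16 passed without siControl replicate 1. Across all 20 alternatives, 10 genes were past the threshold wherever they were tested, namely ATP5F1E, ATP5F1B, ATP5F1A, ATP5MC1, NDUFS1, NDUFV1, NDUFV2, NDUFA13, UQCRC1 and COX5B.

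Summed over the subunit genes of a complex, the level in siMETTL3 was lowest relative to siControl in complex V and above siControl in complex II. These sums are in CPM, count shared reads more than once and carry no test. The 89 genes together held 6783, 7247 and 7491 CPM in siControl and 6417, 6430 and 6488 CPM in siMETTL3, a ratio of 0.898. The groups did not overlap. ATP5F1A and ATP5F1B weigh heavily in this sum, and without them the ratio was 0.925. Complex V summed to 2395, 2569 and 2653 CPM in siControl and to 2122, 2131 and 2170 CPM in siMETTL3, a ratio of 0.843 with no overlap. Without ATP5F1A, ATP5F1B and the readthrough gene ATP5MF-PTCD1 the complex V ratio was 0.884, above that of complex III with all its genes. No gene was left out of complex III, where UQCRC1 went from a mean of 173.9 CPM to 127.8 CPM. The removal therefore does not settle which of these complexes was lowest. For complex III the sums were 692, 775 and 798 CPM against 651, 658 and 669 CPM, a ratio of 0.873. The groups did not overlap there either, and siControl replicate 1 was the nearest to siMETTL3. Complex I summed to 2463, 2582 and 2634 CPM against 2394, 2400 and 2380 CPM, a ratio of 0.934 without overlap. In complex IV the sums overlapped, at 914, 1009 and 1107 CPM against 918, 910 and 940 CPM. The complex II sum was higher in all 3 siMETTL3 libraries, at 333, 331 and 330 CPM against 319, 313 and 299 CPM, a ratio of 1.07.

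**Figure D2:**
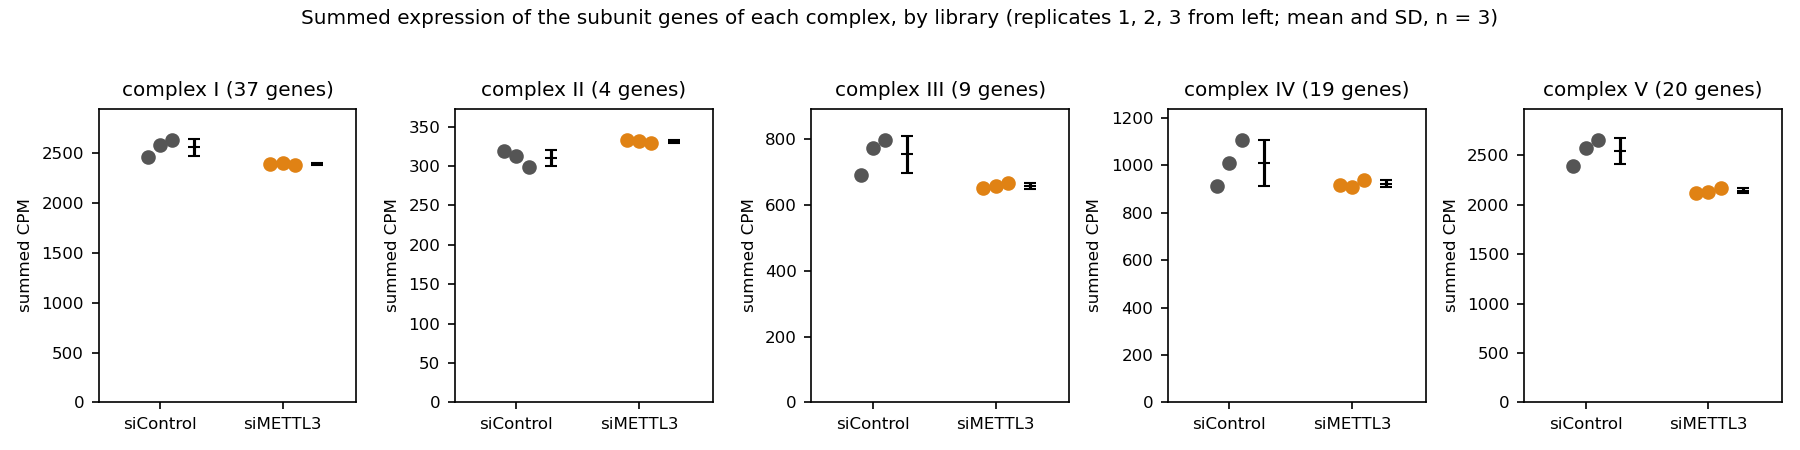
Summed CPM of the subunit genes of each complex (y axis, from 0) in the 3 siControl and 3 siMETTL3 libraries, with the mean and SD beside the points. The siMETTL3 libraries lie close together, at 2122 to 2170 CPM for complex V, while the siControl libraries spread from 2395 to 2653 CPM.

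Subunit genes are short genes, and the direction of the whole set depended on whether transcript length and GC content entered the fit. Their median canonical transcript was 760.5 bases, against 3349 bases over all genes tested, and their median GC content was 48.0% against 48.6%. With an offset for both properties, the share of higher genes among the called subunit genes went from 22.6% to 60.0%. All 7 higher genes stayed higher, and 11 of the 24 lower genes stayed lower. The other 13 lower genes were no longer past the threshold, among them NDUFS5 (log2 fold change -0.35 without and -0.12 with the offset), COX6A1 (-0.26 and -0.11) and ATP5PO (-0.30 and -0.13). UQCRH went from -0.17 to 0.085, 1 of the 31 called genes and the only one of them whose sign changed in any alternative. Of the 55 genes that had not passed, 11 became higher, among them NDUFB3 (0.18 and 0.53) and NDUFA12 (0.16 and 0.45). With an offset for the length of the gene span, the median was -0.054, with 17 genes lower and 8 higher. That offset ended 11 calls, namely those of NDUFA10 and SDHC among the higher genes and of NDUFA2, NDUFA5, NDUFB8, NDUFB11, UQCRH, COX6A1, COX6B1, ATP5MC3 and ATP5MD among the lower genes. It added 5, with NDUFS8, COX7A1 and ATP5MF higher and NDUFA9 and SDHB lower. The GC and length offset takes both properties together, and its shift was not confined to short transcripts. It was 0.15 for NDUFA5, with 5496 bases and 34.6% GC, and 0.039 for NDUFS8, with 737 bases and 63.5% GC. How much of the difference between the groups follows transcript length or GC content in these libraries, and for what reason, was not tested.

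**Figure D3:**
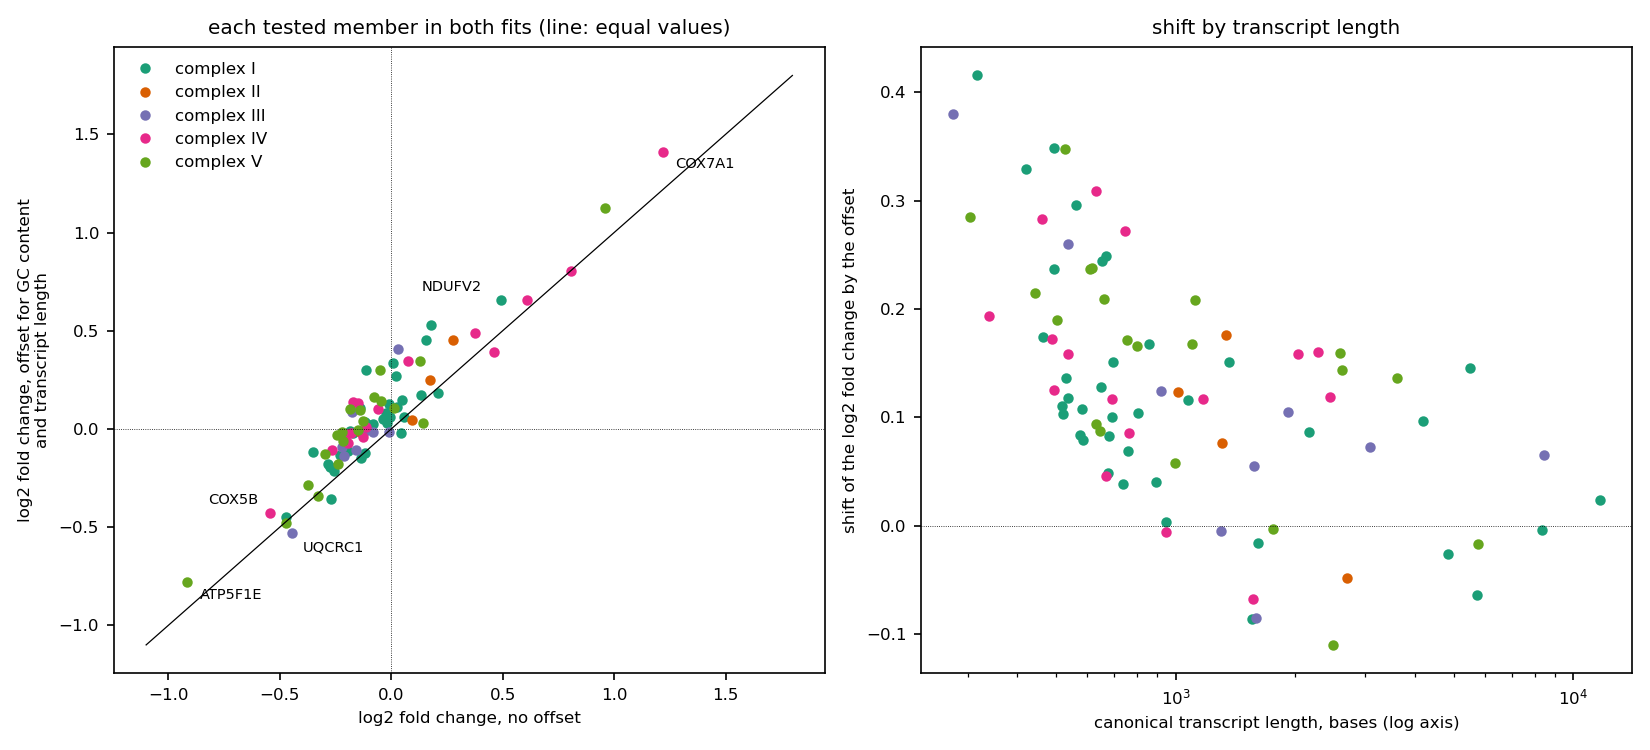
Left, log2 fold change of each tested subunit gene without (x axis) and with (y axis) an offset for transcript length and GC content. Right, the shift of the fold change by the offset (y axis) against canonical transcript length in bases (x axis, log scale). Points of short transcripts lie mostly above 0 in the right panel, by up to 0.42 on the log2 scale for the 317-base transcript of NDUFB1. Some long transcripts also lie above 0, such as that of NDUFA5 (5496 bases, 0.15). The lowest and highest genes of the left panel keep their places.

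Promoters of respiratory subunit genes are known for sites of the factors NRF1 and GABP, the latter an ETS factor. RefSeq promoters (GRCh38.p14, 250 bases before to 50 bases after the start site) were found for 70 of the 89 genes. The ETS and GABP core CCGGAAG, searched on both strands, was in 20 of the 70 (28.6%), against 10.7% of all 27305 promoters of the same length. These 27305 are more than the 19923 genes of the count tables and were not matched to the subunit genes by expression. Among the promoters of subunit genes called lower the core was in 9 of 20, among those called higher in 1 of 4 and among those not past the threshold in 10 of 43. The palindromic NRF1 motif, spelled out in capitals in the SDHD sequence, was in 4 of the 70 (5.71%, against 1.36% of all), a YY1 motif in 4 (5.71%, against 0.916%) and the ERR motif TCAAGGTCA in 1 (1.43%, against 0.359%). Matches to different motifs did not overlap in these 70 promoters. A match is a run of letters and was not measured as a binding site. The 120 bases before the start site are given for COX5B, NDUFS3 and UQCRH, which were lower, and for SDHD, which was higher and holds matches to 3 of the motifs, the ERR match lying past the start site and outside the bases shown. They show the ETS core before genes of both directions. The 4 were chosen after their values were seen, and capitals mark motif matches (CCGGAAG or its reverse complement CTTCCGG, and in SDHD also the NRF1 motif). The last match of COX5B runs on past the start site.
COX5B, chr2:97645942-97646061, plus strand: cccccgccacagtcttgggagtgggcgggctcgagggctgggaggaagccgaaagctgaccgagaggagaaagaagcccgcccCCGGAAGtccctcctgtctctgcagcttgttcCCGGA
NDUFS3, chr11:47578954-47579073, plus strand: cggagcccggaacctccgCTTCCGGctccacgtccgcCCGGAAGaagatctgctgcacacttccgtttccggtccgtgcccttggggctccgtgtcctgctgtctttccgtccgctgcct
UQCRH, chr1:46303578-46303697, plus strand: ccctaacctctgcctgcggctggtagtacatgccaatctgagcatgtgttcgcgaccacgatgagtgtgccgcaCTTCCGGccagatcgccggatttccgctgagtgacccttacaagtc
SDHD, chr11:112086753-112086872, plus strand: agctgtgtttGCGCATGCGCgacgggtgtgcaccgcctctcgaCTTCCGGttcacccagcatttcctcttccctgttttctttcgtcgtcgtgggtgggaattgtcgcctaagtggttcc

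In complex I the core subunits of the matrix arm, which carry the flavin and the iron-sulfur clusters, moved in both directions. NDUFS1, NDUFV1 and NDUFS3 fell, NDUFV2 rose, and NDUFS7 and NDUFS8 were not past the threshold. NDUFS1 (chr2:206114817-206159509), the largest iron-sulfur subunit, read 169, 179 and 174 CPM in siControl and 125, 125 and 126 CPM in siMETTL3. The groups were far apart beside their spread (log2 fold change -0.47, SE 0.054, FDR 1.72e-05, 72.1% of siControl). NDUFV1 (chr11:67605653-67612554), which binds FMN and NADH, read 153, 146 and 138 CPM against 120.1, 125 and 117 CPM. Its highest siMETTL3 library was below its lowest siControl library (-0.27, SE 0.058, FDR 0.00245). NDUFV2 (chr18:9102630-9134345), the iron-sulfur partner of NDUFV1 in the NADH-oxidising module, moved the other way, from 94.5, 107 and 91.1 CPM to 134, 138 and 140.1 CPM. All 3 siMETTL3 libraries lay above siControl (0.49, SE 0.066, FDR 6.74e-05, 140.5% of siControl). With the GC and length offset, NDUFV2 and NDUFS1 kept their calls and their directions.

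NDUFS3 (chr11:47565336-47584562), a core subunit next to the quinone site whose span overlaps CELF1, KBTBD4 and PTPMT1, read 93.4, 113 and 104 CPM against 85.3, 88.8 and 85.9 CPM (-0.26, SE 0.070, FDR 0.0105). The call was lost without siControl replicate 2 (FDR 0.0773) and without siMETTL3 replicate 1 (FDR 0.0540). NDUFS8, an iron-sulfur subunit, read 37.5, 42.7 and 35.6 CPM against 43.0, 43.6 and 40.8 CPM, with overlap (0.14, 95% interval -0.02 to 0.29, FDR 0.208). NDUFS7, which carries the last iron-sulfur cluster before the quinone, read 69.9, 79.4 and 111 CPM against 86.3, 89.2 and 82.4 CPM. The siControl libraries spanned the siMETTL3 range, with siControl replicate 3 the highest (-0.01, SE 0.160, FDR 0.979). Without that library NDUFS7 was higher in siMETTL3 (0.20, FDR 0.0125).

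Accessory subunits surround the core of complex I, and most of them did not pass the test. The same held for all genes tested, of which 37.8% were called in either direction. In the matrix arm NDUFA2 and NDUFA5 fell, out of 9 genes, to 86.3% of siControl each (FDR 0.0372 and 0.0474). The share called there, 22.2%, was below that of all genes tested. NDUFA2 shares span with IK and TMCO6. In the membrane arm 6 of 20 fell and 1 rose, a share called near that of all genes tested. NDUFS5 (chr1:39026318-39034636), a subunit on the intermembrane space side, read 109, 108 and 116 CPM against 81.7, 89.4 and 90.0 CPM. That was 78.3% of siControl with no overlap (-0.35, SE 0.062, FDR 5.72e-04). NDUFA13 (chr19:19515736-19529054), also known as GRIM-19, read 94.9, 97.2 and 93.9 CPM against 78.0, 83.4 and 73.6 CPM (-0.28, SE 0.062, FDR 0.00280). It shares span with YJEFN3 and AC011448.1. NDUFB11, an X-linked membrane arm subunit overlapping RBM10, read 73.0, 86.5 and 87.5 CPM against 70.5, 67.2 and 66.2 CPM (-0.27, SE 0.074, FDR 0.00964). Its call was lost without siControl replicate 2 (FDR 0.0619) and without siMETTL3 replicate 3 (FDR 0.0506). NDUFB2, NDUFB5 and NDUFB8 were the other 3 that fell, to between 85.4% and 87.9% of siControl. NDUFB2 shares span with ADCK2 and BRAF, and NDUFB8 with HIF1AN and AL133352.1.

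NDUFA10 (chr2:239892450-240025345), a membrane arm subunit related to nucleoside kinases, was the higher gene. It read 165, 146 and 134 CPM in siControl and 172, 174 and 167 CPM in siMETTL3, a narrow separation with siControl replicate 1 nearest to siMETTL3 (0.21, SE 0.070, FDR 0.0301). The call was lost in 4 of the 6 fits that left out a library, with FDR values of 0.113 without siControl replicate 2, 0.102 without siMETTL3 replicate 1, 0.113 without siMETTL3 replicate 2 and 0.0692 without siMETTL3 replicate 3. NDUFB3 also separated, at 21.2, 21.6 and 22.8 CPM against 24.2, 24.99 and 25.03 CPM, and did not pass (0.18, FDR 0.105). The readthrough gene NDUFC2-KCTD14 holds the whole of NDUFC2 in its span, so their counts are largely the same reads. Their fold changes were -0.01 and -0.04 (FDR 0.956 and 0.793). The median log2 fold change of the 37 complex I genes was -0.10, and 0.027 with the GC and length offset.

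Complex II is the only complex made wholly of nuclear-encoded subunits, and its 4 genes did not move together. The membrane anchors SDHC and SDHD, which hold the heme and the quinone site, rose. SDHD (chr11:112086824-112120016) read 25.4, 26.3 and 24.6 CPM against 32.8, 28.9 and 30.7 CPM, and all siMETTL3 libraries were above siControl (0.28, SE 0.083, FDR 0.0169). SDHC (chr1:161314257-161375340) read 106, 108 and 102 CPM against 119, 116 and 121 CPM, again without overlap (0.17, SE 0.055, FDR 0.0235). SDHA, the flavoprotein that oxidises succinate, read 124, 114 and 110.0 CPM against 124, 128 and 119 CPM. Its groups overlapped (0.09, 95% interval -0.03 to 0.21, FDR 0.254). SDHB, the iron-sulfur subunit, read 65.0, 64.5 and 63.0 CPM against 57.1, 58.7 and 58.8 CPM. It separated in the other direction and did not pass (-0.14, 95% interval -0.26 to -0.02, FDR 0.0788).

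SDHC and SDHD were the 2 higher genes, and edgeR called 0 of 4 lower, where 1 was lower at an unadjusted p under 0.05 (SDHB) and DESeq2 and limma-voom called 0. The call of SDHC was lost without any one of the siMETTL3 replicates 1, 2 and 3 (FDR 0.0840, 0.0544 and 0.0897). The call of SDHD was lost without siMETTL3 replicate 1 (FDR 0.0938) or replicate 3 (FDR 0.0506). With the GC and length offset both kept their calls. With the span offset SDHD kept its call, SDHC lost it (0.12, FDR 0.104) and SDHB was lower (-0.16, FDR 0.0425). SDHC, SDHD and SDHA overlap other genes of the table, and SDHB does not.

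In complex III, UQCRC1 and UQCRH fell out of 9 genes (22.2%, against 19.2% of all genes tested). UQCRC1 (chr3:48599002-48610976), the larger of the paired core proteins, read 161, 183 and 177 CPM in siControl and 132, 127 and 125 CPM in siMETTL3. The groups stood well apart, at 73.5% of siControl (-0.44, SE 0.061, FDR 8.42e-05). Its partner UQCRC2 read 121, 128 and 135 CPM against 114, 119 and 119.6 CPM. UQCRC2 separated by a small margin and did not pass (-0.12, SE 0.059, FDR 0.127), except without siControl replicate 1 (-0.16, FDR 0.0398). The Rieske iron-sulfur protein UQCRFS1 read 51.7, 71.0 and 60.0 CPM against 48.5, 52.4 and 56.8 CPM. The groups overlapped through siControl replicate 1 (-0.21, SE 0.104, FDR 0.130), and without that library UQCRFS1 was lower (-0.32, FDR 0.00444).

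UQCRH (chr1:46303698-46316776), the hinge protein beside cytochrome c1, read 125, 130.4 and 145 CPM against 116, 117 and 122 CPM. The separation was small (-0.17, SE 0.063, FDR 0.0421), and the call held in 1 of the 6 fits with a library left out, that without siControl replicate 1. In the others the FDR was 0.0834 without siControl replicate 2, 0.0966 without siControl replicate 3, and 0.151, 0.124 and 0.0746 without siMETTL3 replicate 1, 2 and 3. Over all 20 alternatives the call was lost in 12. UQCRHL is a near-identical copy of UQCRH on the same chromosome, so reads may be split between them. It read 32.2, 34.9 and 37.0 CPM against 35.6, 38.8 and 31.7 CPM (0.03, FDR 0.829). Of the 9 complex III genes, edgeR called 0 higher, as did the unadjusted p under 0.05, DESeq2 and limma-voom. The median log2 fold change was -0.16, and -0.015 with the GC and length offset. Cytochrome c1, the subunit of complex III that receives electrons from the Rieske protein, is encoded by CYC1 and lies outside the symbol rule. CYC1 read 104, 128 and 125 CPM against 78.2, 79.5 and 74.3 CPM, 65.1% of siControl (-0.62, SE 0.077, FDR 3.85e-05).

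In complex IV, 3 genes fell and 3 rose out of 16 tested. Each is 18.8%, near the 19.2% lower and 18.6% higher among all genes tested. COX5A and COX5B encode a pair of nuclear subunits on the matrix side of the enzyme, and they moved in opposite directions. COX5B (chr2:97646062-97648383) read 33.1, 30.6 and 37.6 CPM in siControl and 24.1, 23.7 and 21.6 CPM in siMETTL3. The groups did not overlap, and COX5B stood at 68.6% of siControl (-0.54, SE 0.093, FDR 4.98e-04). COX5A (chr15:74919791-74938083) read 12.1, 12.7 and 17.3 CPM against 19.5, 18.1 and 16.6 CPM. Here the groups overlapped, since siControl replicate 3 exceeded siMETTL3 replicate 3 (0.37, SE 0.131, FDR 0.0374). The call of COX5A held without siControl replicate 3, and was lost without siControl replicate 1 or 2 (FDR 0.0979 and 0.152) and without siMETTL3 replicate 1, 2 or 3 (FDR 0.156, 0.108 and 0.0537).

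COX6A1, a subunit at the dimer interface, read 84.3, 96.5 and 98.8 CPM against 80.3, 76.2 and 76.1 CPM (-0.26, SE 0.069, FDR 0.00789). AL021546.1 overlaps 95.9% of the COX6A1 span. COX6B1, on the intermembrane space side, read 48.7, 46.8 and 53.9 CPM against 43.6, 44.9 and 41.3 CPM (-0.20, SE 0.074, FDR 0.0471). COX6B1 was close to the threshold, and its call was lost in 14 of 20 alternatives, among them DESeq2 (FDR 0.0739), limma-voom (FDR 0.0536), the replicate block (FDR 0.0513), the span offset (FDR 0.145) and the GC and length offset (FDR 0.766). The losses with a library left out were without siControl replicate 3 (FDR 0.123) or siMETTL3 replicate 1, 2 or 3 (FDR 0.116, 0.0701 and 0.165). The remaining ubiquitous subunits did not pass. COX4I1, the largest nuclear-encoded subunit, read 166, 182 and 199 CPM against 157, 175 and 169 CPM, with overlap (-0.13, 95% interval -0.26 to 0.01, FDR 0.176). Without siControl replicate 1 COX4I1 was lower (-0.19, FDR 0.0231). NDUFA4, named for complex I but counted here with complex IV, of which it is a subunit, read 109.7, 130.2 and 144 CPM against 112, 108 and 118 CPM (-0.18, FDR 0.115). The complex IV median was -0.12, and 0.12 with the GC and length offset.

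Of 8 tissue isoforms and paralogs of complex IV subunits, 5 had enough counts to test, and COX4I2 and NDUFA4L2 rose. COX4I2, the isoform of COX4I1 known from lung and from low oxygen, read 3.01, 2.85 and 2.92 CPM against 5.30, 3.90 and 4.24 CPM. All siMETTL3 libraries were above siControl (0.61, SE 0.193, FDR 0.0232), and the call was lost without siControl replicate 2 (FDR 0.0741) or siMETTL3 replicate 1 (FDR 0.127). Per kilobase of canonical transcript, COX4I2 stood at 1.83% of the COX4I1 level in siControl and at 3.06% in siMETTL3. NDUFA4L2, the paralog of NDUFA4 known to be induced by low oxygen, read 1.99, 2.20 and 1.73 CPM against 3.01, 3.44 and 3.99 CPM. These groups did not overlap (0.81, SE 0.224, FDR 0.0113), NDUFA4L2 shares span with SHMT2, and the call was lost without siMETTL3 replicate 3 (FDR 0.0549). Per kilobase it stood at 3.33% of NDUFA4 in siControl and 6.67% in siMETTL3.

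COX7A1, the heart and muscle isoform of COX7A2, had 14, 6 and 4 counts in siControl and 26, 24 and 12 counts in siMETTL3. That is 0.649, 0.300 and 0.265 CPM against 1.26, 1.10 and 0.584 CPM, with overlap between siControl replicate 1 and siMETTL3 replicate 3. The fold change of COX7A1 was the highest of all subunit genes, with a wide error (1.22, SE 0.475, FDR 0.0578). It passed in 7 of 19 alternatives, which were without siControl replicate 1 (1.77, FDR 0.0199), without siMETTL3 replicate 3 (1.48, FDR 0.0420), with the replicate block (FDR 0.0378), with the span offset (FDR 0.0330, and 0.0185 with the block) and with the GC and length offset (FDR 0.0245, and 0.0172 with the block). Of 6 muscle markers 1 was at 1 CPM or more on average, and 0 were at 0 in all libraries. The summed level of the 6 was 1.65 to 2.65 CPM in siControl and 6.43 to 6.89 CPM in siMETTL3. TNNT2, a cardiac troponin, made the difference, at 1.298, 1.101 and 1.593 CPM against 5.928, 6.201 and 5.064 CPM, and the other 5 were at 0.7791 CPM or less in all libraries. The part of this in the COX7A1 values was not tested. COX7A2L, a factor of supercomplexes of complexes III and IV, read 128, 135 and 135 CPM against 131, 121 and 129 CPM, with overlap (-0.06, FDR 0.440). COX6B2 stayed under 1 CPM in all libraries (FDR 0.462). COX7B2 and COX8C had too few counts to test, at 0.332 and 0.389 CPM at most. COX6A2, the muscle isoform of COX6A1, had 0 counts in all 6 libraries, which allows at most 0.139 to 0.194 CPM of the unscaled totals by the limit of 3 counts in each library, counting error only.

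**Figure D4:**
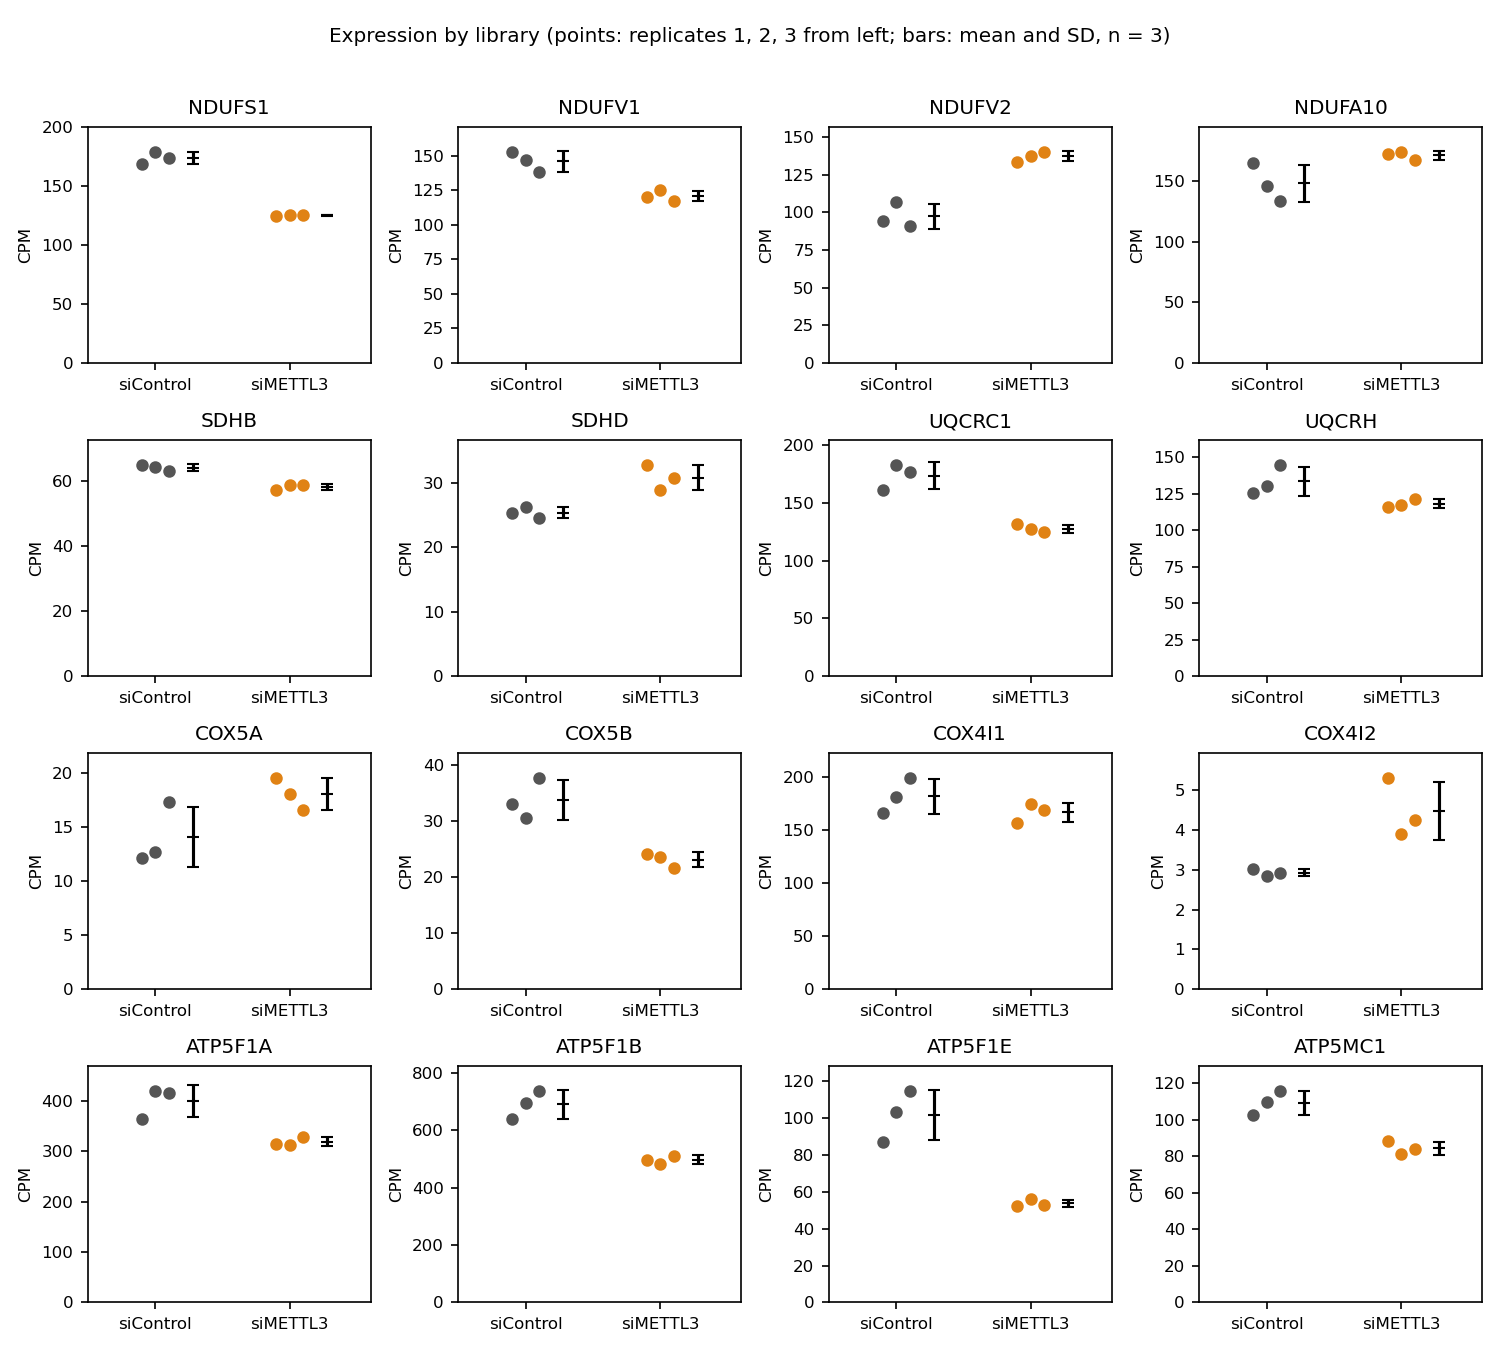
CPM (y axis, from 0) in each library for 16 subunit genes, taken from every complex, with mean and SD (n = 3) beside the points. NDUFV2 and NDUFS1 separate in opposite directions. COX5B separates with siMETTL3 below, while COX5A has the higher mean in siMETTL3 and its groups overlap.

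Of the 20 complex V genes, 8 fell (40.0%), against 19.2% of all genes tested. The share was 29.7% in complex I, 22.2% in complex III, 18.8% in complex IV and 0 of 4 in complex II, and the difference between complexes was not tested. edgeR called 0 higher, as did DESeq2 and limma-voom, and 2 were higher at an unadjusted p under 0.05. The median log2 fold change was -0.17, and 0.014 with the GC and length offset, in which 4 genes were lower and 2 higher. In the F1 head, where ATP is made, ATP5F1B (chr12:56638175-56645984), the catalytic beta subunit, read 637, 696 and 735 CPM in siControl and 497, 481 and 511 CPM in siMETTL3. No siMETTL3 library came near the siControl range (-0.47, SE 0.063, FDR 6.23e-05, 72.0% of siControl). Per kilobase of canonical transcript it was the highest of all subunit genes in siControl, at 391.9 CPM per kilobase. It made up 27.2% of the summed complex V level in siControl and 23.2% in siMETTL3. The alpha subunit ATP5F1A (chr18:46080248-46104334) read 364, 419.8 and 417 CPM against 314, 314 and 329 CPM, also without overlap (-0.33, SE 0.064, FDR 0.00126).

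The lowest fold change of all 86 genes was that of ATP5F1E (chr20:59025475-59032345), the epsilon subunit of the central stalk. It read 87.2, 103 and 114 CPM in siControl and 52.2, 56.0 and 53.0 CPM in siMETTL3. The siMETTL3 libraries agreed closely and lay far below the lowest control, at 53.0% of siControl (-0.92, SE 0.087, FDR 5.72e-06). Its span overlaps TUBB1, and with the GC and length offset its fold change was -0.78. The other stalk subunits did not pass. ATP5F1C, the gamma subunit, read 77.5, 87.0 and 85.0 CPM against 73.3, 75.8 and 79.0 CPM (-0.13, FDR 0.134). ATP5F1D, the delta subunit, read 24.3, 27.3 and 30.1 CPM against 22.3, 24.4 and 22.4 CPM (-0.24, FDR 0.0651). Both overlapped by a single library.

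The c ring, which turns as protons pass, is built from 1 protein that 3 genes encode, ATP5MC1, ATP5MC2 and ATP5MC3. ATP5MC1 (chr17:48892765-48895871) read 103, 109.7 and 116 CPM against 88.2, 81.1 and 83.9 CPM (-0.37, SE 0.063, FDR 4.56e-04). ATP5MC3 read 126, 135 and 145 CPM against 112, 115 and 120.3 CPM (-0.22, SE 0.063, FDR 0.0137). Neither overlapped. The call of ATP5MC3 was lost without siControl replicate 2 (FDR 0.0503) and without siMETTL3 replicate 1 or 2 (FDR 0.0788 and 0.0554). ATP5MC2 read 151, 139.7 and 154 CPM against 146, 149.9 and 152 CPM and overlapped throughout (0.01, 95% interval -0.10 to 0.12, FDR 0.895). Per kilobase of canonical transcript, the share of ATP5MC1 in the sum of the 3 genes was 35.6 to 38.3% in siControl and 30.8 to 33.2% in siMETTL3. The share of ATP5MC2 was 49.9 to 53.5% and 56.2 to 58.2%. The share of ATP5MC3 was 10.9 to 11.8% and 10.6 to 11.2%, which overlapped. These shares divide counts over spans of 3107, 44683 and 8350 bases by transcripts of 646, 632 and 2587 bases (ATP5MC1, ATP5MC2 and ATP5MC3). Reads in introns can thus enter the shares unequally.

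In the peripheral stalk, which holds the head still, ATP5PO (chr21:33903453-33915814) fell, from 85.5, 94.4 and 99.4 CPM to 72.1, 78.0 and 76.6 CPM (-0.30, SE 0.067, FDR 0.00333). AP000311.1 overlaps the whole span of ATP5PO. ATP5PB separated at 167, 184 and 184 CPM against 162, 159.9 and 160.1 CPM and did not pass (-0.15, FDR 0.0571). ATP5PF, which shares the start of its span with GABPA, read 34.2, 40.3 and 54.0 CPM against 43.1, 40.9 and 39.4 CPM, the siControl libraries spreading wider than the groups differed (-0.05, FDR 0.818). With the GC and length offset ATP5PF was higher (0.30, FDR 0.00543). Among the accessory membrane subunits, ATP5MG and ATP5MD fell to 85.7% and 84.6% of siControl (FDR 0.0361 and 0.0368). The whole span of ATP5MG is overlapped by AP001267.5. ATP5MF and the readthrough gene ATP5MF-PTCD1 share their reads and lay above siControl in all siMETTL3 libraries, with fold changes of 0.13 and 0.14 that did not pass (FDR 0.0814 and 0.0704). ATP5MF-PTCD1 passed without siControl replicate 1 (0.18, FDR 0.0153). ATP5MGL, a copy of ATP5MG whose whole span overlaps CYB5R3, stayed under 1 CPM (0.96, SE 0.495, FDR 0.146). ATP5IF1, the inhibitor that blocks ATP hydrolysis, read 32.4, 37.3 and 34.0 CPM against 36.4, 31.9 and 32.0 CPM, with overlap (-0.05, 95% interval -0.21 to 0.12, FDR 0.704).

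Other genes of respiration were read from 8 lists, 129 genes tested in all, of which 36 were lower and 11 higher. That is 36.4% called, again near the background of 37.8%. As in the subunit genes, lower calls outnumbered higher ones, where 19.2% of all genes tested were lower and 18.6% higher. Counts with the GC and length offset are not given for these lists. Of the 10 subunits and carriers that the symbol rule leaves out, 6 fell (60.0%, against 19.2% of all genes tested), with a median of -0.30. CYC1 was among them. SLC25A6, a carrier of adenine nucleotides across the inner membrane, fell to 76.3% of siControl (FDR 7.00e-05). ETFA, which passes electrons from fatty acid oxidation towards ubiquinone, fell to 77.3% (FDR 3.12e-04).

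Of 19 complex I assembly factors, 6 fell and 1 rose (36.8% called, against 37.8% of all genes tested), with a median of -0.097. NDUFAF8 fell most, from 40.5, 62.5 and 57.5 CPM to 27.9, 30.1 and 27.8 CPM (-0.90, SE 0.141, FDR 7.76e-04). Of 28 complex IV assembly factors, 11 fell and 2 rose (46.4% called, median -0.12). COX18, OXA1L and SCO2 stood at 74.1%, 79.5% and 74.5% of siControl (FDR 0.00138, 0.00276 and 0.00477). Among the 10 factors of complexes II and III, 1 was called (10.0%). This was LYRM7, which assists insertion of the Rieske protein and fell (-0.31, FDR 0.00409). Of the 5 complex V factors, TMEM242 alone was called (20.0%), and it rose (0.32, FDR 0.0302). Its call was lost in 5 of the 6 fits with a library left out, namely all but that without siControl replicate 3 (FDR 0.0552 to 0.141). Of 19 genes of mitochondrial DNA expression, 7 fell and 2 rose (47.4% called, median -0.12). TFAM, which packages mitochondrial DNA, read 79.6, 88.6 and 89.0 CPM against 70.0, 63.6 and 78.0 CPM (-0.28, FDR 0.0112). The TFAM call was lost without siControl replicate 2 (FDR 0.0607) and without siMETTL3 replicate 1 or 2 (FDR 0.0509 and 0.0697). MTERF1 rose (0.52, FDR 2.95e-04).

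Of 12 nuclear regulators of respiratory genes, PPARGC1B, NRF1 and TFEB rose and the other 9 did not pass, with a median log2 fold change of 0.053. PPARGC1B, a coactivator of mitochondrial genes, read 62.3, 62.6 and 59.0 CPM against 87.9, 96.4 and 88.1 CPM, wholly above siControl (0.57, SE 0.063, FDR 1.43e-05). NRF1 read 91.2, 83.4 and 76.5 CPM against 106, 98.9 and 97.4 CPM (0.26, FDR 0.00890), a call lost without siMETTL3 replicate 1 (FDR 0.0602). TFEB, a regulator of lysosomal genes, rose to 159.7% of siControl (FDR 0.00210). PPARGC1A fitted lower and did not pass (-0.21, FDR 0.0768), and GABPA and ESRRA were at 0.01 and -0.08 (FDR 0.949 and 0.542). In the tricarboxylic acid cycle and pyruvate entry, 5 of 26 genes fell and 2 rose (median -0.080). That is 26.9% called, against 37.8% of all genes tested. PDK1, the kinase that turns pyruvate dehydrogenase off, rose to 130.4% of siControl (FDR 2.05e-04), while IDH2 and FH fell to 78.5% and 82.0% (FDR 0.00173 and 0.0102). The call of FH was lost without siMETTL3 replicate 1 (FDR 0.0710).

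**Figure D5:**
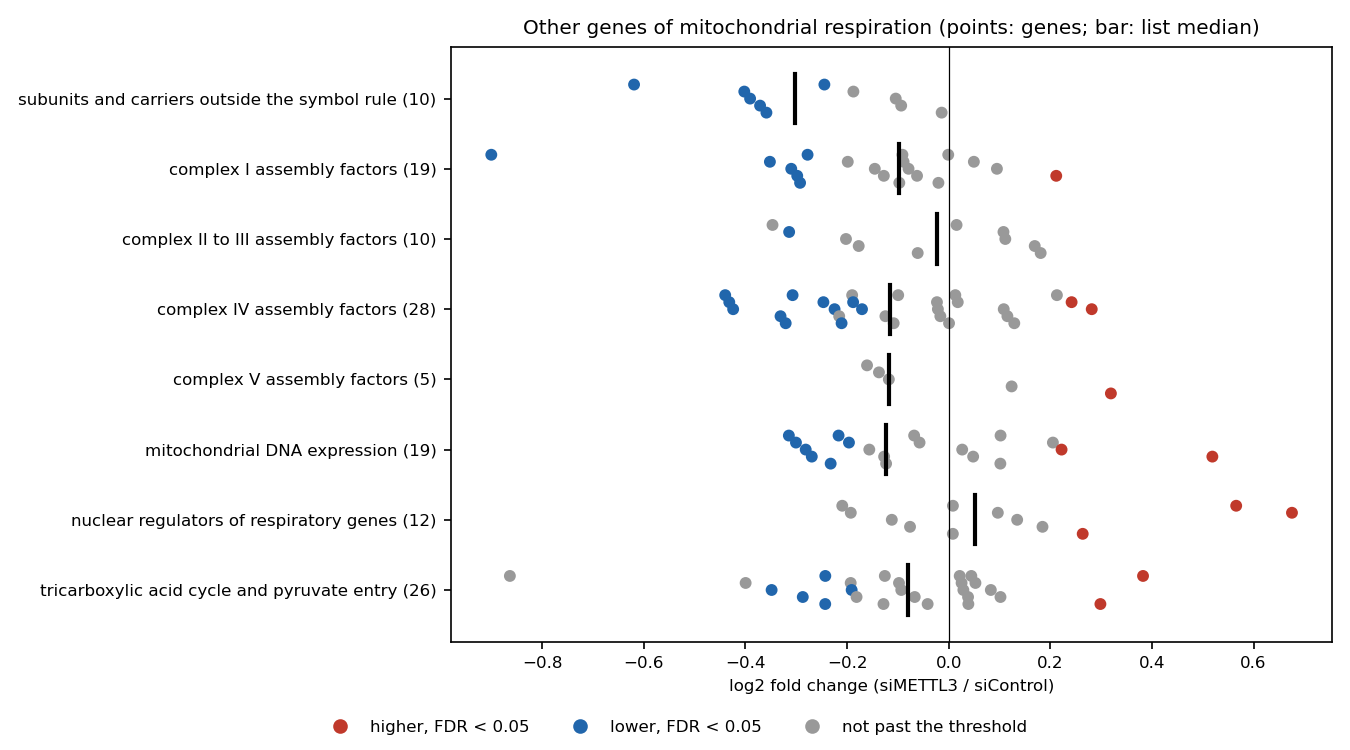
Log2 fold change (siMETTL3 over siControl, x axis) of each tested gene in 8 lists of respiration genes, with a black bar at each list's median and colours for the call at an FDR under 0.05. The bar of the outside subunits and carriers is at -0.30 and that of the regulators at 0.053, on either side of the other 6.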

How the data were processed

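The 6 poly(A) RNA-seq libraries of Kelly cells were analysed, 3 siControl and 3 siMETTL3, grouped by their titles. The authors deposited raw counts for 19923 protein-coding genes, made with featureCounts 1.5.3 and GENCODE release 33, per the file headers. The gene span was the counted feature, without strand, and reads over several genes counted for each. Per the submitters' processing notes, FastQC 0.11.5, Trimmomatic 0.36 and HISAT2 2.1.0 were used, with GRCh38. Coordinates are those of the tables.

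Counts were filtered (filterByExpr, 15311 genes kept), scaled by TMM and fitted with edgeR 4.0.16 in R 4.3.3 (glmQLFit, robust, and glmQLFTest, no covariate). FDR is the Benjamini-Hochberg value over all tested genes, with a threshold of 0.05. SE is the size of the log2 fold change over the root of its F statistic, and 95% intervals are normal ones from it. Means have n = 3. The fit was tested on simulated data. Transcript length and GC content came from GENCODE release 44 canonical transcripts, found for 96.4% of tested genes. Levels per kilobase divide counts over the whole span by that length.

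The 20 alternatives were other scalings, filters and tools (DESeq2 1.42.0, limma-voom 3.58.1), non-robust dispersions, the replicate number as a block, offsets for span or for length and GC content without and with the block, genes without overlaps, and each library left out. The members, the 8 lists and the rule for named genes (core subunits, isoforms, copies and some regulators whatever their result, up to 5 called genes per direction and complex, up to 3 per list) were chosen with earlier results of these data known. Other subunit genes named to fill out their role group were chosen after their values were seen. NDUFA4 and NDUFA4L2 are counted with complex IV. One subunit gene is in the counts and medians and is not reported singly here. FASTKD4 was not found under that symbol in the table, and PERM1 had too few counts to test.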

Additional observations from a re-analysis of the deposited data

How the results depend on the processing

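The counts and medians of the subunit genes moved with the offsets, the overlap filter and single libraries, and the cause was not tested. With the offset for transcript length and GC content 18 subunit genes were higher and 12 lower, also when the replicate block was added. The median of all subunit genes was 0.023 (0.022 with the block), of complex I 0.027 (0.024), of complex III -0.015 (-0.016), of complex IV 0.12 (0.12) and of complex V 0.014 (0.014). With an offset for gene span the median of all was -0.054 (-0.056 with the block), of complex I -0.047 (-0.046) and of complex II 0.090 (0.091). Genes without overlaps gave 4 higher and 14 lower of 47 tested, a complex V median of -0.24, and a complex II median of -0.16, which was SDHB alone.

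Leaving out 1 library at a time gave 2 to 9 higher and 13 to 37 lower genes, from fewer samples. The medians ran from -0.16 to -0.079 for all subunit genes, -0.13 to -0.064 for complex I, 0.10 to 0.16 for complex II, -0.22 to -0.089 for complex III, -0.18 to -0.052 for complex IV and -0.22 to -0.12 for complex V. METTL3 stayed between -0.74 and -0.69. The depth of siControl replicate 3, the shallowest library, limits what its counts can show for genes under 1 CPM.

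Among the genes named by the rule, the log2 fold changes that changed sign were mostly near 0, and the cause was not tested. Other subunit genes changed sign too, some by more. With the GC and length offset NDUFB1 went from -0.11 to 0.30 (FDR 0.0206) and ATP5PF from -0.05 to 0.30 (FDR 0.00543). COX7C went from -0.17 to 0.14 (FDR 0.0939), while NDUFV3 went the other way, from 0.044 to -0.020 (FDR 0.848). NDUFS7 was at 0.0051 with upper quartile scaling, 0.019 with total counts, 0.032 with limma-voom, 0.014 with the replicate block, 0.039 and 0.062 with the span offset without and with the block, 0.062 and 0.082 with the GC and length offset, and from -0.14 to 0.20 with a library left out. NDUFC2-KCTD14 was at 0.0044, 0.016 and 0.013 with upper quartile scaling, total counts and limma-voom, 0.13 and 0.13 with the GC and length offset, and -0.10 to 0.12 with a library left out. ATP5MC2 was at -0.029 and -0.028 with the span offset and -0.0058 among genes without overlaps, and ran from -0.029 to 0.037 with a library left out. ATP5IF1 was at 0.0068 and 0.0067 with the span offset, 0.14 and 0.15 with the GC and length offset and -0.11 to 0.012 with a library left out. With the GC and length offset COX7A2L was at 0.10 (0.10 with the block) and UQCRH at 0.085 (0.085). GABPA was at -0.020 (-0.015) with the span offset and at -0.027 and -0.084 with a library left out, UQCRHL at -0.023 and -0.046 and ESRRA at 0.043.

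The labels do not say whether the replicate numbers pair the libraries. Same-numbered libraries correlated weakly, at 0.040, 0.049 and 0.067, in their deviations from the group means, and differently numbered ones at -0.064 to 0.026. Every library correlated best with its own number, which is a hint from the data and not from the design. With the replicate block 26 subunit genes were lower and 8 higher, 30 of them shared with the 31 called without it. The median of all subunit genes was then -0.12. RLE scaling, both other filters and non-robust dispersions left 7 higher and 22 to 25 lower genes, DESeq2 gave 7 and 18 and limma-voom 7 and 22. A comparison of subunit proteins had been planned and was not run, since no protein sequences were used here.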
